A study of Mus musculus with 12 samples.

Results

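The microRNA processing and silencing machinery was followed here through 10 genes: Drosha, Dgcr8, Xpo5, Dicer1, Tarbp2, Ago1, Ago2, Ago3, Ago4 and Tnrc6a. They were taken by name, and every probe set that the platform annotation gives to 1 of them alone was used. That made 34 probe sets of the 45037 tested, and 10 of the 18193 genes with a symbol. A probe set is a group of short array probes for 1 transcript or part of it, and its value is a log2 expression value, on which a difference of 1 is a 2-fold change.

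The RNA came from C3H10T1/2, a mouse embryonic cell line of mesenchymal character, on 12 Affymetrix arrays in 4 groups of 3. The over-expression experiment was meant to raise miR-140: its cells took up siRNA-140, which mimics miR-140, and its control cells took up siRNA-96. The suppression experiment was directed at the cells' own miR-140 with LNA-antimicroRNA-140, and there the control cells took up LNA-antimicroRNA-449. An LNA oligonucleotide contains locked nucleic acid, whose stiff sugar makes it hold a complementary RNA firmly. All cells are of the same line and all received an oligonucleotide, no group is untransfected, and each control is itself directed at or derived from another microRNA. The labels give no dose or time and do not state if a replicate was a culture of its own, so the p-values measure only the spread between these samples, which may be technical.

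A microRNA is cut from a long primary transcript in the nucleus by the Microprocessor, in which Drosha is the nuclease and Dgcr8 the partner that binds the RNA. Exportin-5, the product of Xpo5, carries the hairpin to the cytoplasm, where Dicer1 with Tarbp2 trims it to a duplex. An Argonaute protein keeps 1 strand as guide, and Tnrc6a (GW182) links the Argonaute to the enzymes that remove the poly(A) tail of the target. A transfected duplex enters this path at the Argonaute step, and an LNA oligonucleotide acts on the loaded guide, so both reagents of this study depend on the last part of the path.

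Guides of the microRNAs that the reagents are named for are shown. The sequences are mouse mature microRNAs from RefSeq (GRCm38.p6), 5′ to 3′, with the seed (bases 2 to 8), the stretch that pairs with targets, in capitals. The labels do not say which arm of a hairpin the reagents copied or blocked, nor which member of the miR-449 family.
miR-96-5p: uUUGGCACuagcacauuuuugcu
miR-140-3p: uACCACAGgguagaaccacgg
miR-449a-5p: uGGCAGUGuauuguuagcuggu
miR-449c-5p: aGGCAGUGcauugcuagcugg
The seed GGCAGUG was shared by miR-449a-5p and miR-449c-5p, while the seeds of miR-96-5p and miR-140-3p were different from it and from each other. The miR-140-5p arm is named only, so the seed shown for miR-140 need not be that of the reagents. Mature microRNAs are not measured by these arrays.

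The arrays of the over-expression experiment did not fall by their labels, and this bears on each result below. On the first principal component of those 6 arrays, which held 53.2% of their variance, siRNA-140 replicates 1 and 2 lay with siRNA-96 replicate 1, and siRNA-140 replicate 3 lay with siRNA-96 replicates 2 and 3. How many of all probe sets separate those 2 sets of arrays was not counted, so such a separation in a member is description only. The mean of 11 probe sets of 8 interferon-induced genes, out of 10 genes listed, was 3.85, 3.96 and 5.90 after siRNA-140 against 4.07, 7.20 and 7.76 after siRNA-96. It lay between 3.43 and 3.85 in the antimicroRNA arrays. Vnn1, a gene of coenzyme A turnover, read 10.37, 10.51 and 5.52 after siRNA-140 against 10.04, 5.66 and 5.27 after siRNA-96. Results of that experiment are therefore given with all arrays and with siRNA-140 replicate 3 and siRNA-96 replicate 1 removed. These are called the 2 crossed arrays. Without them, the siRNA-140 arrays kept are all high in Vnn1 and the siRNA-96 arrays kept all low. A difference with siRNA-140 in that setting therefore cannot be told apart from a difference by this profile. The labels of the 2 crossed arrays may have been exchanged, which these values cannot settle. Each labelled siRNA difference and each count of calls from it thus holds only if the labels are right. Where 3 values are given for a group, they are replicates 1, 2 and 3 in that order. Array medians lay between 3.95 and 4.02 in the over-expression experiment and between 4.32 and 4.38 in the suppression experiment, and the sources used here do not say if the experiments were normalized together. The interferon mean of the antimicroRNA arrays is therefore given as a value only, and levels are compared within an experiment. The median of all probe sets was 4.14. Of 10 mesenchymal marker genes, 9 had a probe set at or above it, and Thy1 did not. It was reached by 2 of 4 epithelial markers (Epcam 6.22 and Krt8 5.07) and 1 of 4 endothelial markers (Kdr 4.30). Of 4 haematopoietic markers 3 reached it (Cd14 6.91, Csf1r 5.21 and Cd68 5.21). Ptprc, Pecam1, Cdh5, Tek, Cdh1 and Krt18 lay below it.

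With every array kept in its labelled group, no difference between the miR-140 mimic and the miR-96 control was detectable in the 10 genes. limma called 0 of the 34 member probe sets, as it called 0% of all probe sets, at a Benjamini-Hochberg adjusted p under 0.05. At an unadjusted p under 0.05 there were 2 of 34, beside 5.09% of all probe sets. The median difference, siRNA-140 minus siRNA-96, was 0.09 over the members and 0.02 over all probe sets. The 95% intervals of the 34 reached from -0.59, for Drosha, to 0.89, for Ago3, so no member interval held a 2-fold change. In a fit of the 6 siRNA arrays alone the median standard error of the members was 0.14 in place of 0.12. The intervals then reached from -0.70, for Dicer1, to 0.99, for Ago3. There, 0 of 34 reached an unadjusted limma p of 0.05 (smallest 0.0508). The groups did not overlap in 2 of 34 probe sets, 1 of Dicer1 and 1 of Tnrc6a, beside 6.1% of all.

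Blocking miR-140 against blocking miR-449 also gave 0 called probe sets among the 34, and 0% among all. None of the 34 reached an unadjusted p of 0.05, beside 2.27% of all probe sets, and the groups did not overlap in 0 of 34, beside 8.4%. The median difference, antimicroRNA-140 minus antimicroRNA-449, was 0.005 over the members and -0.00333 over all probe sets. Intervals of the members reached from -0.50 to 0.55. In a fit of these 6 arrays alone the median standard error of the members was 0.09 in place of 0.12, the intervals reached from -0.39 to 0.55, and again no member passed (smallest limma adjusted p = 0.974). The difference between the siRNA and the antimicroRNA contrast was tested as well, and 0 of 34 members passed (0% of all; 2 of 34 at an unadjusted p under 0.05, of Ago2 and Ago3, beside 2.94%).

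**Figure D1:**
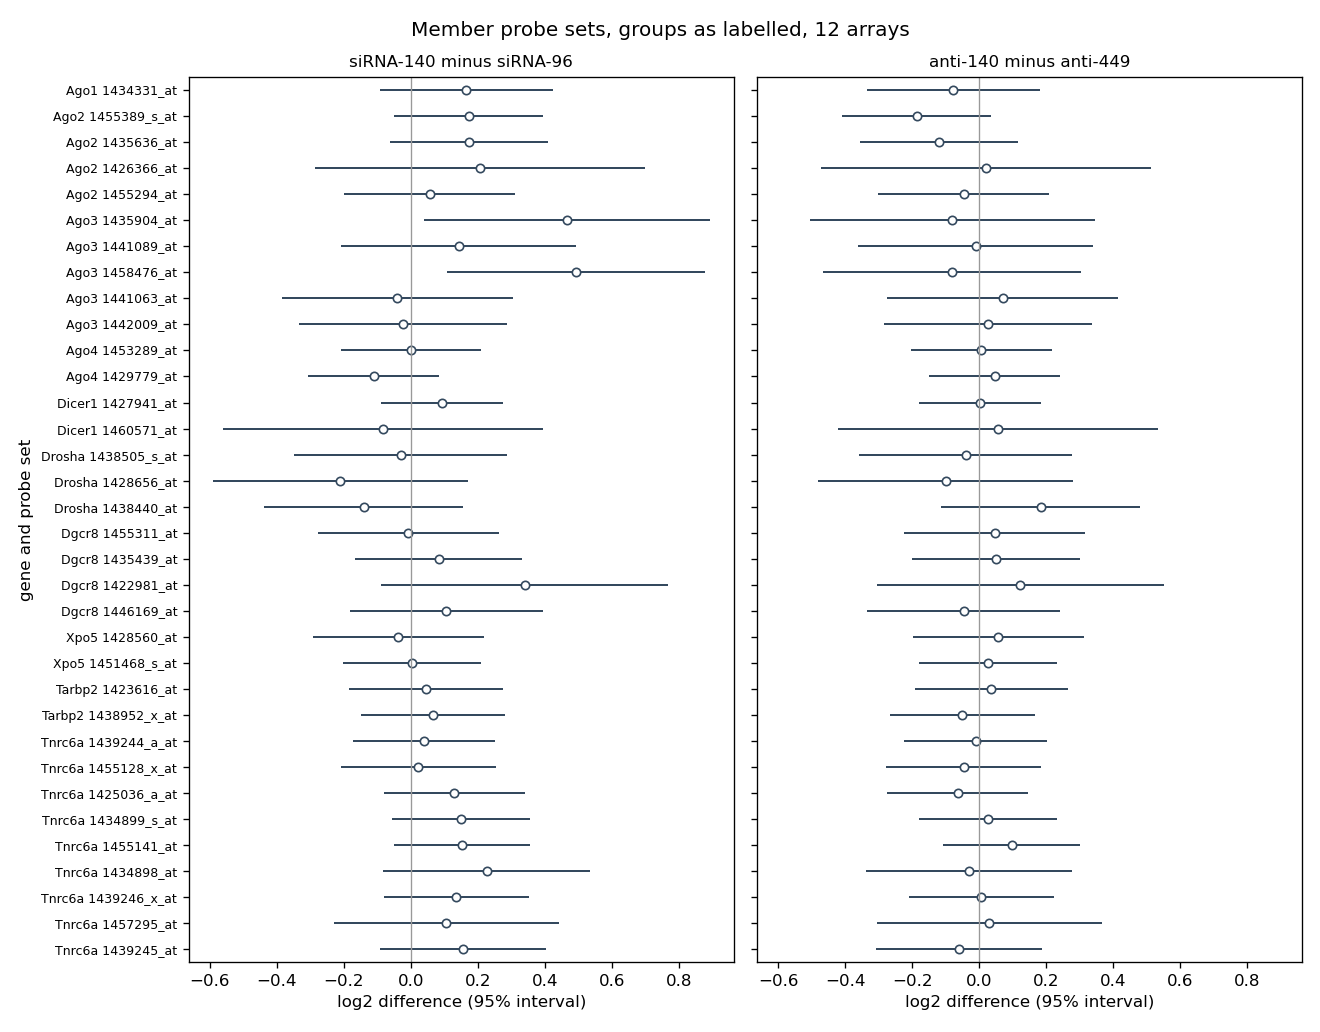
Log2 differences of the 34 member probe sets (circles) with 95% intervals (lines) in the fit of all 12 arrays, siRNA-140 minus siRNA-96 on the left and antimicroRNA-140 minus antimicroRNA-449 on the right. All circles are open, since no adjusted p was under 0.05, and the Ago3 intervals on the left reach furthest to the right, to 0.89.

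Drosha, the nuclease of the Microprocessor, had 3 probe sets. Its probe set 1428656_at read 7.67, 7.59 and 8.24 after siRNA-140 against 7.76, 8.23 and 8.14 after siRNA-96. The 3 arrays high in Vnn1 were thus the 3 lowest, with the labels mixed in each set, and the labelled groups overlapped. The difference as labelled was -0.21 ± 0.18 (SE, n = 3 in each group; limma adjusted p = 0.888). Without the 2 crossed arrays it was -0.555 ± 0.14, 1.47-fold lower with siRNA-140 (n = 2 in each group; adjusted p = 0.0258).

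The other Drosha probe sets moved less. At 1438505_s_at the values were 8.73, 8.83 and 9.10 after siRNA-140 against 8.65, 9.02 and 9.08 after siRNA-96, the same 3 arrays lowest over a narrower span, and the difference without the 2 crossed arrays was -0.27 ± 0.14 (adjusted p = 0.315). The dimmest probe set, 1438440_at, with a mean of 4.44, gave -0.045 ± 0.17 in that setting. In the suppression experiment 1428656_at read 7.86, 8.26 and 7.86 after antimicroRNA-140 against 7.97, 8.20 and 8.11 after antimicroRNA-449, so that the groups overlapped and the difference was -0.10 ± 0.18 (SE).

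Dgcr8, the RNA-binding partner of Drosha, had 4 probe sets, and none passed in any fit of the labelled groups. Its brightest, 1455311_at, read 7.38, 7.07 and 7.49 after siRNA-140 against 7.10, 7.46 and 7.40 after siRNA-96, a difference of -0.01 ± 0.12 (SE). The arrays high in Vnn1 were the lowest there, by a narrow margin, but the highest at the dim probe set 1446169_at. At 1422981_at the difference was 0.34 ± 0.20, with siRNA-140 values of 4.26, 4.84 and 4.92 against 4.36, 4.41 and 4.23. The 4 probe sets without the 2 crossed arrays gave differences from -0.205 to 0.30, and none passed.

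Xpo5, the export receptor of microRNA hairpins, had 2 probe sets with differences of -0.04 ± 0.12 and 0.00333 ± 0.094 (SE) as labelled. At 1428560_at the values were 7.71, 7.87 and 8.05 after siRNA-140 against 7.72, 8.09 and 7.93 after siRNA-96, with the arrays high in Vnn1 lowest here too. With the crossed arrays removed, that probe set gave -0.22 ± 0.12 (adjusted p = 0.322), and the other gave -0.04 ± 0.12.

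Dicer1, the nuclease that releases the duplex, gave unlike readings at its 2 probe sets. Probe set 1460571_at read 6.33, 6.21 and 6.84 after siRNA-140 against 5.93, 6.95 and 6.75 after siRNA-96. The same 3 arrays as for Drosha were lowest, and the lowest of all was siRNA-96 replicate 1. Its range over the 6 siRNA arrays was 1.02, and only 6.17% of probe sets with a mean at or above the median had a wider one. The labelled difference was -0.08 ± 0.22 (SE), and without the 2 crossed arrays it was -0.58 ± 0.13, 1.49-fold lower with siRNA-140 (adjusted p = 0.0111).

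The other Dicer1 probe set, 1427941_at, hardly varied. It read 7.54, 7.64 and 7.56 after siRNA-140 against 7.51, 7.53 and 7.42 after siRNA-96, a range of 0.22, which 91.8% of the probe sets at or above the median exceeded. The siRNA-140 values all lay above the siRNA-96 values, by a narrow margin, and the difference was 0.09 ± 0.08 (adjusted p = 0.891) as labelled and 0.115 ± 0.10 (adjusted p = 0.614) without the 2 crossed arrays. The gap between the Dicer1 probe sets, 1460571_at minus 1427941_at, was -1.21, -1.43 and -0.72 after siRNA-140 against -1.58, -0.58 and -0.67 after siRNA-96. It lay between -0.79 and -0.46 on the 6 antimicroRNA arrays. The gap was thus widest on the 3 arrays high in Vnn1, and the lower reading of Dicer1 rests on 1 of its 2 probe sets. Which part of the transcript each probe set reads is not given in the annotation used here.

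Tarbp2, the double-stranded RNA binding partner of Dicer1, was among the steadiest members. Its probe set 1423616_at lay between 7.98 and 8.23 on the 6 siRNA arrays, with the groups overlapping, and both of its probe sets had siRNA differences of at most 0.07 as labelled. The interval at 1423616_at was -0.18 to 0.27, and at 1438952_x_at -0.15 to 0.28. With the crossed arrays removed, the differences were 0 and 0.125, and neither passed.

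Ago2, the Argonaute that can cut a fully paired target, had 4 probe sets, of which 1 stood apart. Probe set 1426366_at read 8.16, 8.37 and 7.47 after siRNA-140 against 8.31, 7.66 and 7.41 after siRNA-96. The 3 arrays high in Vnn1 were the 3 highest, here in the direction opposite to Drosha and Dicer1, and no value lay between 7.66 and 8.16. The labelled difference was 0.21 ± 0.23 (SE; adjusted p = 0.906). Without the 2 crossed arrays it was 0.73 ± 0.13, 1.66-fold higher with siRNA-140 (adjusted p = 0.00354).

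At the remaining Ago2 probe sets that difference was 0.10, 0.21 and 0.23, and none passed (smallest adjusted p = 0.368). The brightest of them, 1455389_s_at, read 8.74, 8.85 and 8.63 after siRNA-140 against 8.53, 8.67 and 8.50 after siRNA-96, without a break between the arrays high and low in Vnn1. The gap of 1426366_at to it was -0.58, -0.48 and -1.16 after siRNA-140 against -0.22, -1.01 and -1.09 after siRNA-96, and between -1.16 and -0.79 on the antimicroRNA arrays. In the suppression experiment 1455389_s_at gave the smallest p of all 34 members, unadjusted 0.0888: it read 8.92, 8.92 and 8.85 after antimicroRNA-140 against 8.92, 9.23 and 9.10 after antimicroRNA-449, a difference of -0.19 ± 0.10 (SE; limma adjusted p = 1).

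Ago3, an Argonaute of the same cluster as Ago1 and Ago4, had 5 probe sets, 3 of them with a mean below the median of all probe sets. The brightest, 1435904_at, read 5.86, 5.68 and 5.18 after siRNA-140 against 5.44, 5.15 and 4.73 after siRNA-96. Here the labels and the split of arrays pointed the same way: within the arrays high in Vnn1 both siRNA-140 values lay above the siRNA-96 value, and within the others the siRNA-140 value lay above both siRNA-96 values. The labelled difference was 0.47 ± 0.20 (SE; unadjusted p = 0.0331, limma adjusted p = 0.88). Without the 2 crossed arrays it was 0.83 ± 0.17, 1.78-fold higher with siRNA-140 (adjusted p = 0.00835).

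The dimmer Ago3 probe sets were uneven. At 1441089_at the values were 5.05, 5.14 and 4.60 after siRNA-140 against 5.11, 4.69 and 4.56 after siRNA-96, so the arrays high in Vnn1 were again the highest, and the difference without the 2 crossed arrays was 0.47 ± 0.13 (adjusted p = 0.0357, and 0.12 with the 4 remaining siRNA arrays alone). At 1458476_at, with a mean of 4.13, the labelled difference was 0.49 ± 0.18 (unadjusted p = 0.0151, limma adjusted p = 0.88), and without the 2 crossed arrays it was 0.67 ± 0.20 (adjusted p = 0.0582). The remaining pair gave 0.01 and 0.095 in that setting. In the suppression experiment the 5 differences lay between -0.08 and 0.07.

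**Figure D2:**
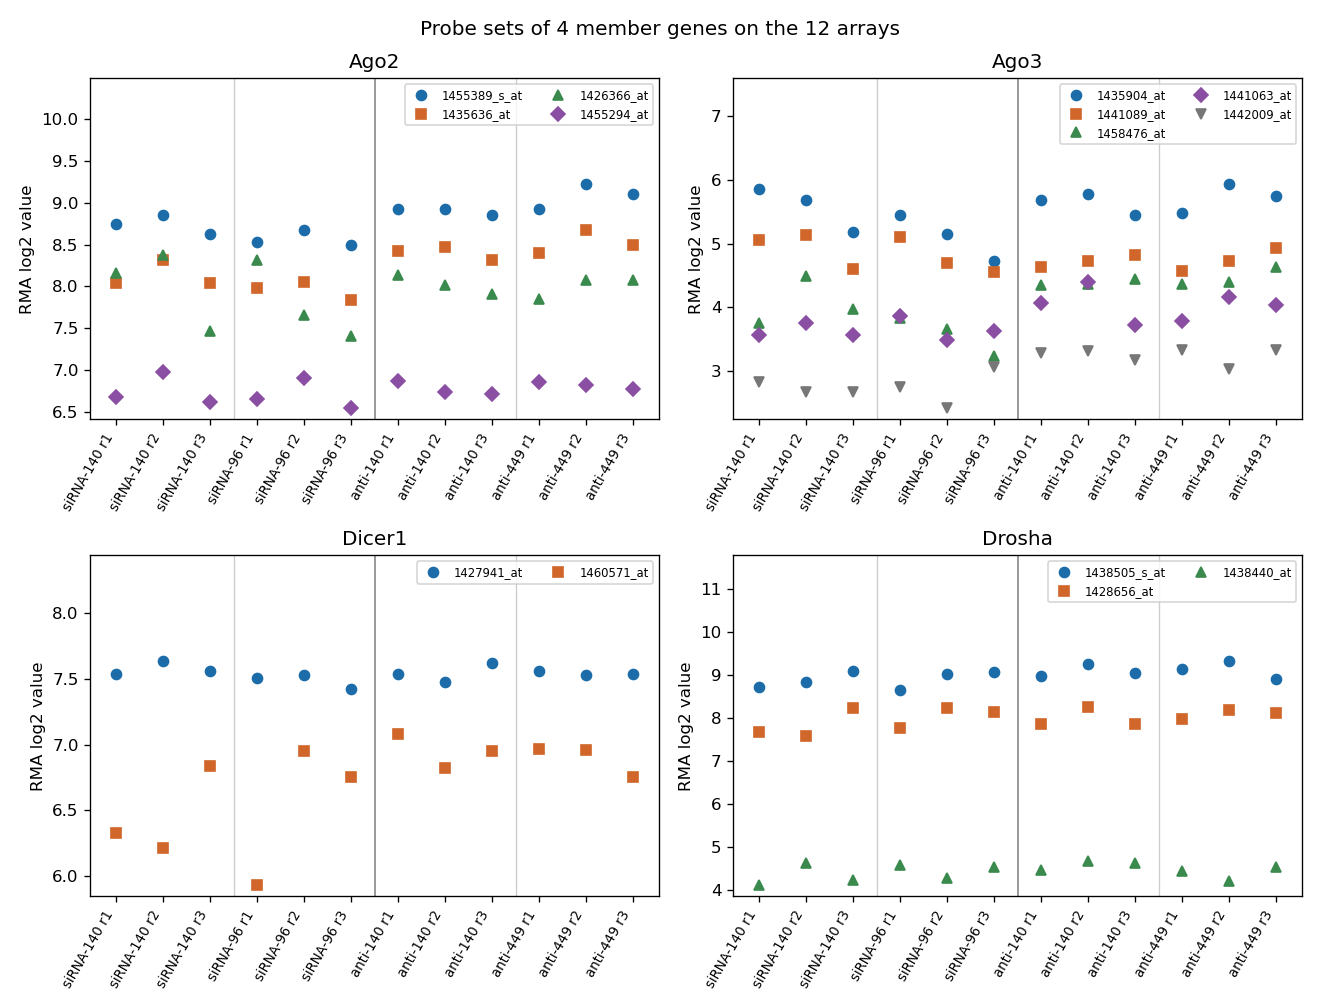
RMA log2 values of every probe set of Ago2, Ago3, Dicer1 and Drosha on each of the 12 arrays, each mark a probe set on an array; r1 to r3 are replicates and anti stands for antimicroRNA. Probe sets of 1 gene differ in how much they vary over the siRNA arrays: Ago2 1426366_at lies at 8.16 to 8.37 on 3 siRNA arrays and 7.41 to 7.66 on the other 3, and Dicer1 1427941_at stays between 7.42 and 7.64.

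Ago1 and Ago4, which encode Argonautes that silence without cutting in the usual assays, showed no step. In RefSeq (GRCm38.p6) Ago3, Ago1 and Ago4 follow each other with 0 genes between neighbours. Ago1, with 1 probe set, read 7.66, 7.98 and 7.86 after siRNA-140 against 7.44, 7.88 and 7.68 after siRNA-96, a difference of 0.17 ± 0.12 (SE) as labelled and 0.04 ± 0.13 without the 2 crossed arrays. The pair of Ago4 probe sets had means of 2.84 and 2.74, below the median of all probe sets, and ranges of 0.16 and 0.30 over the siRNA arrays, so a difference in Ago4 was hardly detectable.

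Tnrc6a, the scaffold that joins Argonaute to the deadenylases, had 9 probe sets, and all 9 labelled siRNA differences were above 0, from 0.02 to 0.23, with none past the test (smallest unadjusted p = 0.124). These probe sets are annotated to 1 gene and come from the same arrays, so they are not replicates. The brightest, 1439244_a_at, read 9.11, 9.27 and 9.13 after siRNA-140 against 9.02, 9.13 and 9.24 after siRNA-96, and 1434898_at read 6.29, 6.37 and 6.39 against 5.71, 6.36 and 6.30, where siRNA-96 replicate 1 alone was low. In the fit without the 2 crossed arrays the 9 differences lay between -0.115 and 0.245, so the common sign was lost, and none passed.

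Taking the 34 probe sets in the fit without the 2 crossed arrays, limma called 5, in 4 genes: 3 higher (Ago2 once and Ago3 at 2 probe sets) and 2 lower (Dicer1 and Drosha). That is 14.7% of the members beside 8.98% of all probe sets, of which 5.13% were higher and 3.85% lower, and among probe sets with a mean at or above the median it is 5 of 27 members, or 18.5%, beside 16.2%. The share of members called thus lay near the background at like brightness. With only 1 of the 2 arrays left out, none of the 5 passed: the smallest limma adjusted p was 0.208 when siRNA-140 replicate 3 was removed and 0.357 when siRNA-96 replicate 1 was removed, both at Ago3 1435904_at. In a fit of the 4 remaining siRNA arrays alone 2 members were called, Ago2 1426366_at (adjusted p = 0.0292) and Ago3 1435904_at (adjusted p = 0.0245), beside 3.87% of all probe sets (2.02% higher and 1.85% lower) and 7.11% of those at or above the median; Dicer1 1460571_at and Drosha 1428656_at had an adjusted p of 0.0623 and 0.0619. The 2 arrays were left out because of their whole profile, after it was known, so these p-values cannot stand on their own for an effect of the mimic. The interferon-induced genes were lower without the 2 crossed arrays at all 11 probe sets, with a median difference of -3.745, and Vnn1 was higher. This followed from the choice of arrays, since those left out are the ones whose interferon and Vnn1 values cross the labels. The siRNA-140 arrays kept are all high in Vnn1 and the siRNA-96 arrays kept all low. In both fits reagent and profile therefore cannot be told apart, and the part of these genes in the members' differences was not tested.

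The same 10-array fit tested the difference between experiments for the members. Ago2 1426366_at (0.71 ± 0.17, adjusted p = 0.0341), Ago3 1435904_at (0.91 ± 0.22, adjusted p = 0.0369) and Dicer1 1460571_at (-0.64 ± 0.16, adjusted p = 0.0456) passed, beside 4.41% of all probe sets. Each of these has a mean at or above the median of all probe sets, and the share called among such probe sets was not computed for this comparison. Drosha 1428656_at did not pass (-0.455 ± 0.18, adjusted p = 0.232). Ago3 1441089_at did not either (0.48 ± 0.16, adjusted p = 0.149). None of the 9 other probe sets of the 4 genes passed in either comparison.

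**Figure D3:**
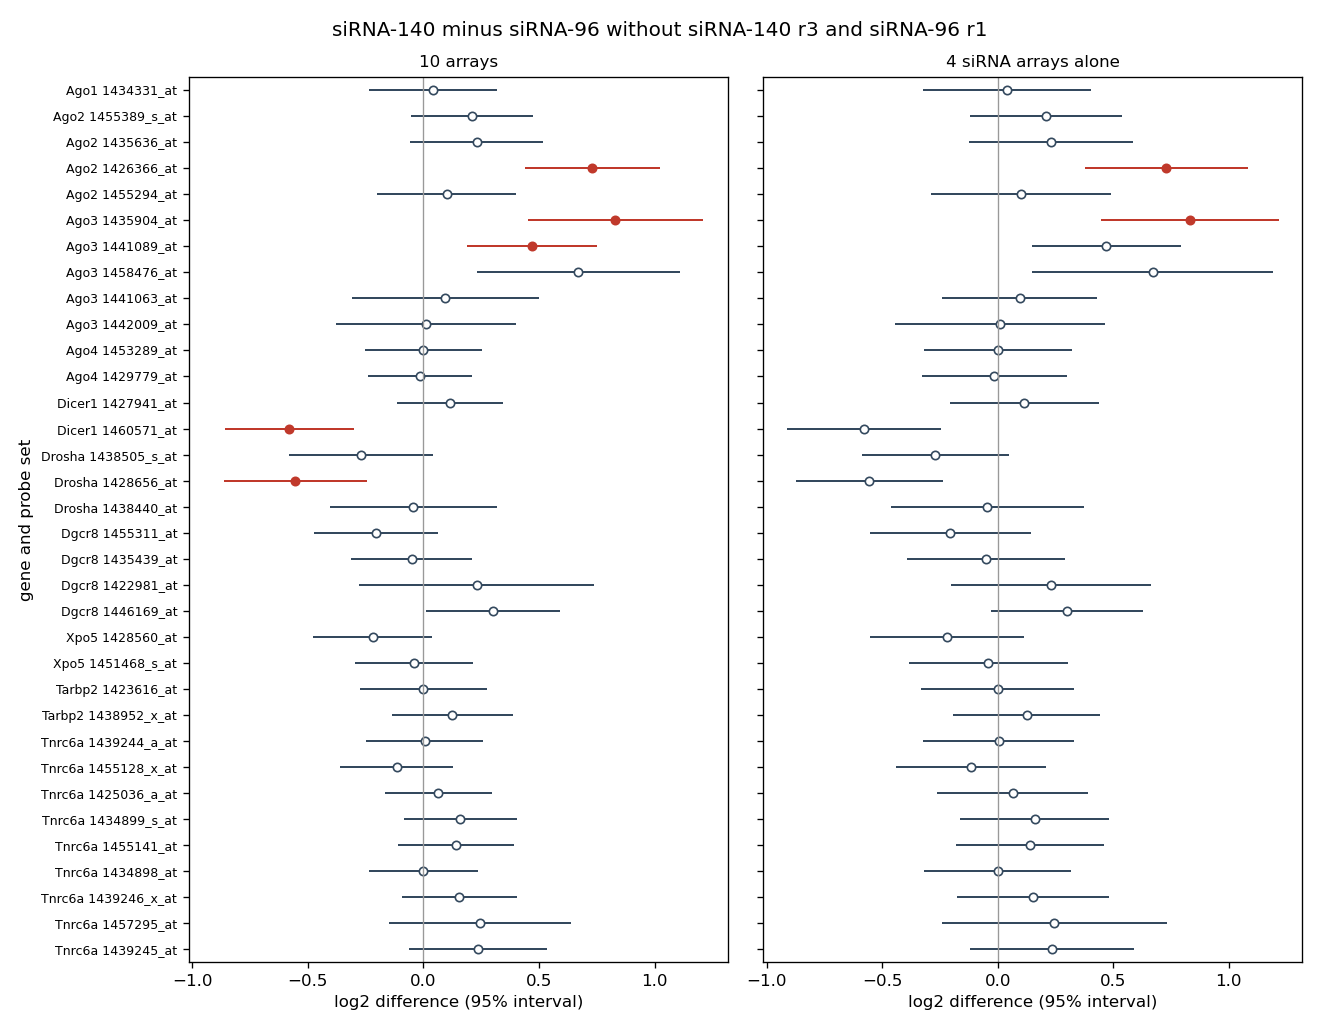
Log2 differences, siRNA-140 minus siRNA-96, of the 34 member probe sets with 95% intervals after the 2 crossed arrays, siRNA-140 replicate 3 and siRNA-96 replicate 1, were left out; red filled circles have an adjusted p under 0.05 over all probe sets. In the 10-array fit on the left 5 probe sets are red, Ago2 and Ago3 to the right of 0 and Dicer1 and Drosha to the left, and in the 4-array fit on the right 2 remain, of Ago2 and Ago3.

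A further 62 genes of the pathway were listed in 6 roles, from cofactors of the Microprocessor to enzymes of mRNA decay, and 58 were measured by 161 probe sets. None passed in the siRNA contrast, the antimicroRNA contrast or the difference between them with the groups as labelled; at an unadjusted p under 0.05 there were 8, 2 and 5 of the 161 by limma, beside 5.09%, 2.27% and 2.94% of all probe sets. The smallest p in the siRNA contrast belonged to Tnrc6c, a relative of Tnrc6a (0.31 ± 0.11), on the higher side and to a dim probe set of Lsm14a (-0.38 ± 0.13) on the lower side. In the antimicroRNA contrast they belonged to the exonuclease gene Xrn1 (0.32 ± 0.12) and to Pan3, a deadenylase subunit gene (-0.28 ± 0.16), and these genes had the smallest p in the difference between contrasts, with the signs turned (-0.40 ± 0.18 and 0.59 ± 0.22).

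Without the 2 crossed arrays, 16 of the 161 were called, 4 higher and 12 lower, or 9.94% beside 8.98% of all probe sets, and 4 were called in the 4-array fit, or 2.48% beside 3.87%. The shares of all probe sets, 8.98% and, at or above the median, 16.2%, are the background for each list that follows. Among nuclear factors only Adar was called, lower at all 3 of its probe sets (-1.20 ± 0.19, -0.915 ± 0.19 and -0.545 ± 0.14); it encodes an RNA-editing enzyme with an interferon-induced form. Its probe set 1425405_a_at read 5.61, 6.35 and 6.87 after siRNA-140 against 6.07, 7.14 and 7.22 after siRNA-96, higher on the 3 arrays high in interferon-induced genes. Of loading factors, 1 of 23 probe sets was called, of the chaperone gene Hspa8 (0.435 ± 0.12), while its 3 other probe sets gave -0.05 to 0.11.

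Genes of the silencing complex had 1 call in 27 probe sets, Ajuba, which encodes a LIM-domain protein (-0.77 ± 0.12; adjusted p = 0.0203 with 4 arrays). Deadenylation genes had 4 lower and 1 higher of 41, and 1 of 41 in the 4-array fit. Cnot6, a catalytic subunit of the CCR4-NOT deadenylase, was lower at 3 of 4 probe sets, by up to -0.71 ± 0.11 at 1426684_at, which read 6.53, 6.56 and 7.40 after siRNA-140 against 6.67, 7.33 and 7.18 after siRNA-96. Cnot2 was lower at 1 of 6 (-0.59 ± 0.11) and Pan3 higher at 1 of 4 (0.56 ± 0.14).

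Decapping and decay genes had 3 lower and 1 higher of 21, beside 8.98% of all probe sets, and 0 of 21 in the 4-array fit, where 3.87% of all were called. All 3 lower ones were of Lsm14a, a translational repressor of processing bodies (-0.755 ± 0.16, -0.45 ± 0.13 and -0.445 ± 0.11), whose remaining probe set gave -0.35, and the higher one was of the exonuclease gene Xrn2 (0.515 ± 0.15). Genes of small RNA tailing and turnover had 1 call each way of 17, Tent2, a poly(A) polymerase gene (0.585 ± 0.11), and a dim probe set of Tut4 (-0.41 ± 0.11). In the 4-array fit the calls were 2 of the 3 Adar probe sets (1434268_at had an adjusted p of 0.139), that of Ajuba and 1 of the 4 of Cnot6 (its other 2 called in the 10-array fit had 0.215 and 0.256).

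**Figure D4:**
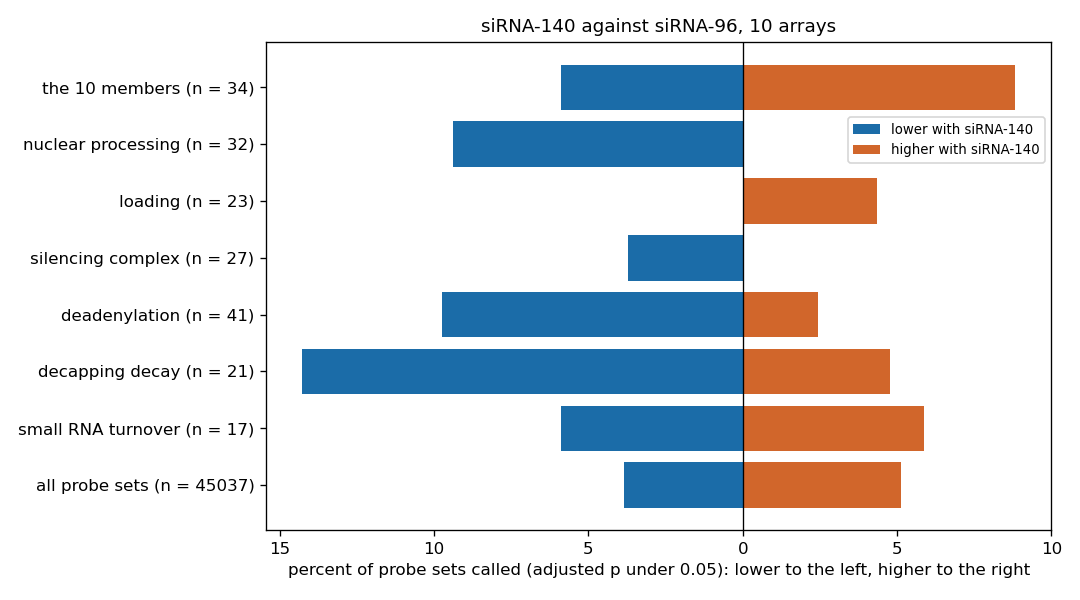
Percent of probe sets called in the 10-array fit of siRNA-140 against siRNA-96, lower with siRNA-140 to the left and higher to the right, for the 10 members, the 6 role lists and all probe sets, with the number of probe sets n. The members have 5 calls of 34, decapping and decay genes 4 of 21, and all probe sets 8.98%. Among all probe sets with a mean at or above the median, not drawn, the share is 16.2%.

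Spread over arrays was wider in the over-expression experiment for 28 of the 34 member probe sets, or 82.4%, beside 70.0% of all probe sets. Among probe sets with a mean at or above the median it was wider for 23 of 27 members, or 85.2%, beside 82.4%. The median range was 0.425 over the 6 siRNA arrays and 0.28 over the 6 antimicroRNA arrays for the members, and 0.43 and 0.31 for all probe sets. Ago3 1458476_at (1.25), Ago3 1435904_at (1.13), Dicer1 1460571_at (1.02) and Ago2 1426366_at (0.96) had the widest siRNA ranges among the members.

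The genes most like Ago2, Dicer1 and Drosha in pattern were sought over the 12 arrays, by the brightest probe set of each gene after each experiment's mean was taken off, among 11310 genes. For Ago2 they were Tead1, Uhrf1bp1 and Dst (Pearson r = 0.93, 0.91 and 0.91), for Dicer1 Asb3, Mccc1 and Usp27x (0.94, 0.90 and 0.90) and for Drosha Pptc7, Snapc3 and Bmp4 (0.91, 0.90 and 0.89). These are the highest of many values over 12 points that share the split of the siRNA arrays, and they are given as a description. For Ago2, Dicer1 and Drosha the brightest probe set is not the one called without the crossed arrays, though that of Drosha followed the same split over a narrower span.

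Dicer1, Drosha, Dgcr8 and Xpo5 each had a probe set lowest on the same 3 arrays, so this was not particular to the nucleases. Dgcr8 also had a dim probe set highest on them. The first principal component of the siRNA arrays, with 53.2% of their variance, follows this split. How many of all probe sets follow it was not counted, so the pattern is not a trait shown to belong to these genes. Of these genes, the promoters of the nuclease genes Dicer1 and Drosha are shown. Each is the 250 bases before the annotated start in RefSeq (GRCm38.p6), 5′ to 3′ on the gene's strand, at chr12:104751953-104752202 on the minus strand and chr15:12824565-12824814 on the plus strand, with any GC box (GGGCGG on either strand) in capitals.
Dicer1: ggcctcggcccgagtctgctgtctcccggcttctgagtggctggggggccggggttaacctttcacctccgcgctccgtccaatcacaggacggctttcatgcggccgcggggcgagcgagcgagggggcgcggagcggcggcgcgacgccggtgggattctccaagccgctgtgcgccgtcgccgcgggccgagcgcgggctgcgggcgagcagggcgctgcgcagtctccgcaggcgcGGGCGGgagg
Drosha: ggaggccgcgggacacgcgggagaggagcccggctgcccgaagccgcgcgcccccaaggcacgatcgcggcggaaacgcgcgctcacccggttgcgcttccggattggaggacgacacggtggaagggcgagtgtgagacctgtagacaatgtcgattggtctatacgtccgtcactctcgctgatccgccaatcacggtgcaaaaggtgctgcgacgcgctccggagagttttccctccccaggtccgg
Of the 10 members 9 had promoters in the sequences used, in 10 windows since Ago1 has 2 starts whose windows overlap. The GC box was present in 8 windows, of 7 genes with both Ago1 windows counted, beside 32.7% of all 32851 windows. The letters of the interferon-stimulated element, GAAA, any 2 bases and GAAA again, on either strand, were in 0 of 10 windows beside 2.98% of all, and TTCNNNGAA, the interferon-gamma-activated element, in 0 of 10 beside 7.02%. A match or its absence describes these letters in these windows only.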

How the data were processed

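The deposited table holds log2 expression values. The submitters' processing notes name RMA, which subtracts background, normalizes between arrays and combines the probes of a set. Its version and probe set definitions are not given in the sources used here. Of 45101 probe sets, 64 array controls were left out and no filter on level was applied. The platform annotation gave 34945 of the tested probe sets 1 symbol, 932 several and 9160 none, and genes were named only from the first. The 12 arrays entered 1 linear model with a mean for each of the 4 groups (limma 3.58.1, lmFit and eBayes, under R 4.3.3), p-values were adjusted by Benjamini-Hochberg over 45037 probe sets, and a probe set was called at an adjusted p under 0.05. The number of arrays limits the precision. Genes beside the members were named by smallest p, up to 3 called probe sets each way in a role list. The members and lists were chosen with earlier results of these data known.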

Additional observations from a re-analysis of the deposited data

How the results depend on the processing

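The counts of called member probe sets in the 3 contrasts stayed at 0 in fits of the compared arrays alone (not run for the difference between contrasts), with the replicate number as a block, after a further quantile normalization or median centring, over the brighter probe sets, with an intensity trend, with array weights, with 1 value per gene and without each array in turn. Without the 2 crossed arrays, the 10-array fit called 4043 probe sets and 5 members in the siRNA contrast and 1985 and 3 in the difference between contrasts, and the 4-array fit, chosen after seeing the data, called 1743 and 2. At an unadjusted p the counts were 2292 probe sets with 2 members, 1022 with 0, and 1322 with 2. Leaving out 1 array gave 0 to 36 called probe sets in the siRNA contrast, 36 when siRNA-96 replicate 1 and 25 when siRNA-96 replicate 2 was removed, and 0 to 1 in the difference. The replicate block gave 0 called probe sets in each contrast; same-numbered arrays correlated at -0.24 to 0.44 in the siRNA experiment and -0.03 to 0.10 in the other, and 2 of 6 and 2 of 6 arrays correlated best with their own number, so the numbers were not taken as pairs. Of 707 recomputed siRNA differences of the members, 63 changed sign or moved to or from exactly 0, none of them past the test. With 3 arrays a group, the median standard error of 0.12 limits what could be called.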
